A study of Mus musculus with 18 samples.

Results

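Gene expression in the brain of mice under chronic restraint stress was set against that of control mice. In this procedure animals are repeatedly kept from moving. The stress group had 3 brain libraries and the control group had 3, out of 18 libraries of brain, liver and testis. Both groups are plain mice as far as the labels go: no transgene, mutation or drug is named for either group, and the sources used here state no strain, age or length of restraint. The gene table held 34932 genes, and the 17668 that passed a low count filter within the 6 brain libraries are the genes described. Total counts were 32.08, 34.08 and 32.26 megacounts in stress brain replicates 1, 2 and 3 and 33.64, 32.38 and 36.5 megacounts in control brain replicates 1, 2 and 3. Levels are given as CPM (counts scaled to library size with TMM factors) for 1 gene across libraries, and as TPM (which also corrects for gene length) for sums over genes. Fold changes are log2 of stress over control with the standard error of the fitted model, over 3 libraries of each group. The labels speak of 3 biological replicates, and the p-values measure only the spread between these libraries.

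The sample labels call the tissue brain, while the extraction text names the hippocampus. Marker genes of both principal hippocampal fields were present in every library: Ammon horn markers summed to 928, 1175 and 946 TPM in stress brain replicates 1, 2 and 3, and to 949, 1123 and 858 TPM in control brain replicates 1, 2 and 3. Dentate gyrus markers summed to 285 to 321 TPM in stress brain and 246 to 268 TPM in control brain. Within those sums C1ql2, of dentate granule cells, was uneven. It had 37.8, 30.5 and 9.35 TPM in stress brain replicates 1, 2 and 3 and 11.9, 4.81 and 1.63 TPM in control brain replicates 1, 2 and 3. Cortex markers were present too, at 518 to 754 TPM in stress brain and 632 to 830 TPM in control brain. The sums therefore do not give the share of hippocampus in a library. Pan-neuronal genes summed to 7533 to 7923 TPM in stress brain and 7450 to 8013 TPM in control brain. Replicate 3 stood apart in both groups: striatum markers summed to 315, 703 and 2781 TPM in stress brain replicates 1, 2 and 3, and to 327, 347 and 4403 TPM in control brain replicates 1, 2 and 3. For stress brain replicate 3 the description field holds a code that begins like those of the controls, but title, treatment and column name all say stress. The values without replicate 3 of both groups, a choice made after seeing the data, are therefore given for the lists that the results rest on.

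Restraint acts on the brain through the hypothalamus, pituitary and adrenal gland, which release corticosterone in rodents. Corticosterone enters brain cells and binds the glucocorticoid receptor (Nr3c1) and the mineralocorticoid receptor (Nr3c2), and the bound glucocorticoid receptor turns on genes such as Fkbp5, a co-chaperone that dampens the receptor. The hippocampus is rich in both receptors and takes part in shutting the response off. Neuronal firing separately switches on immediate early genes such as Fos and Npas4, whose transcripts appear within minutes and are soon degraded.

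By edgeR's quasi-likelihood test with Benjamini-Hochberg adjustment, 1 of 17668 genes was higher in stress brain (0.00566%) and 0 were lower (0%). That gene was the pseudogene Gm6969. Without adjustment, p was under 0.05 for 735 genes higher in stress brain (4.16%) and 597 lower (3.38%). In 1274 genes every stress library lay above every control library (7.21%), and in 1173 every stress library lay below (6.64%). Stress and control libraries of the same replicate number deviated from their group means together, and with the replicate number as a block edgeR called 17 genes higher (0.0962%) and 5 lower (0.0283%) in stress brain. Titles and sample codes pair no stress animal with a control animal. The pairing was read from these same libraries, so p-values of the blocked fit can be too small. The 16 protein-coding genes called with the block at 1 CPM or more in a group were Rpl38, Rps28, Rps29, Atp5k, Mt3, Sparc, Ddo, Fkbp5, Zbtb16, Slc5a3, Ttr, Trh, Lhx9, C1ql2, Igsf1 and Nnat in the higher direction. Btg2, Npas4, Dusp1, Hba-a1 and Hbb-bs were the 5 lower ones. With replicate 3 of both groups left out, edgeR called Gm6969 higher (log2 fold change 5.25, adjusted p = 0.0149) and Btg2, an antiproliferative gene, lower (-1.94, adjusted p = 0.0138).

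Gm6969 is a processed pseudogene, a copy of a messenger RNA that was written back into the genome. Its source by sequence is Cox7a2l, which encodes a factor that joins respiratory complexes III and IV into supercomplexes. Laboratory mouse strains are known to carry either a long or a short form of Cox7a2l. The Gm6969 transcript in GENCODE release M21 (build GRCm38) aligned to the Cox7a2l coding transcript over all of its 342 bases with 97.66% identity, with 2 mismatches and 1 gap. The gap is a run of 6 bases that Gm6969 has and the annotated Cox7a2l transcript lacks, inside the Cox7a2l coding sequence. The stretch around it is shown because it is the main difference by which a read can be assigned to one gene or the other. Both are written in the sense of the transcript, 5′ to 3′, with the 6 bases in capitals. Gm6969 lies at chr12:24638669-24639010 on the minus strand and Cox7a2l at chr17:83501918-83517330 on the minus strand (GRCm38).
Gm6969: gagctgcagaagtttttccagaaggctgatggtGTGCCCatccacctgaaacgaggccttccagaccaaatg
Cox7a2l: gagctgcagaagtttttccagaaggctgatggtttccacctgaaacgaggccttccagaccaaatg

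Since the copies are so alike, reads counted on Gm6969 may come from Cox7a2l transcripts, for instance of a form that holds the 6 bases. This was not tested, and every value of Gm6969 is a count placed on that gene, whatever its origin. Gm6969 had 26.2, 27.0 and 14.9 CPM in stress brain replicates 1, 2 and 3, against 0.953, 0.432 and 0.444 CPM in control brain replicates 1, 2 and 3. The groups lay far apart, with stress replicate 3 the lowest of the stress libraries. The log2 fold change was 5.21 ± 0.38 (SE, n = 3 each, edgeR adjusted p = 0.0252). Cox7a2l had 75.2, 67.0 and 92.3 CPM in stress brain and 103.8, 98.2 and 100.1 CPM in control brain (log2 fold change -0.37 ± 0.12, edgeR adjusted p = 0.594), so all stress libraries lay below all control libraries. Cox7a2l was chosen after its values were seen. Gm6969 kept a positive log2 fold change of 5.02 to 5.68 in the 6 fits that each left out 1 library, and it passed the threshold only in the fit without stress brain replicate 3 (edgeR adjusted p = 0.0235). The highest adjusted p of those 6 fits was 0.315, without control brain replicate 2.

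Taken as a share of the reads counted on both genes together, Gm6969 held 25.8% (95% Wilson interval 24.4 to 27.4), 28.7% (27.2 to 30.3) and 13.9% (12.8 to 15.1) in stress brain replicates 1, 2 and 3. In control brain replicates 1, 2 and 3 the share was 0.909% (0.645 to 1.28), 0.438% (0.261 to 0.733) and 0.441% (0.272 to 0.715). These intervals cover counting error only. The sample codes recur across tissues, and the share had the same shape in each: 20.9%, 20.2% and 10.1% in stress liver replicates 1, 2 and 3 against 0.575%, 1.09% and 0.769% in control liver, and 32.6%, 34.0% and 13.9% in stress testis replicates 1, 2 and 3 against 0%, 0.770% and 0.137% in control testis. In control testis replicate 1 the count was 0 of 1077 reads, which allows a share of up to 0.279%. In every tissue replicate 3 had the lowest share of the stress group. The reads of both genes added together were 3264, 3229 and 3444 in stress brain and 3520, 3200 and 3628 in control brain. In the separate edgeR fits, Gm6969 was also higher in stress liver (log2 fold change 4.35, adjusted p = 0.00286) and in stress testis (6.65, adjusted p = 0.0223), and its stress effect in brain minus that in liver was 0.86 ± 0.61 (edgeR adjusted p = 0.647). Whether the stress and control animals differ in genotype was not tested, and strain or litter cannot be told apart from treatment for any gene that follows.

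**Figure D1:**
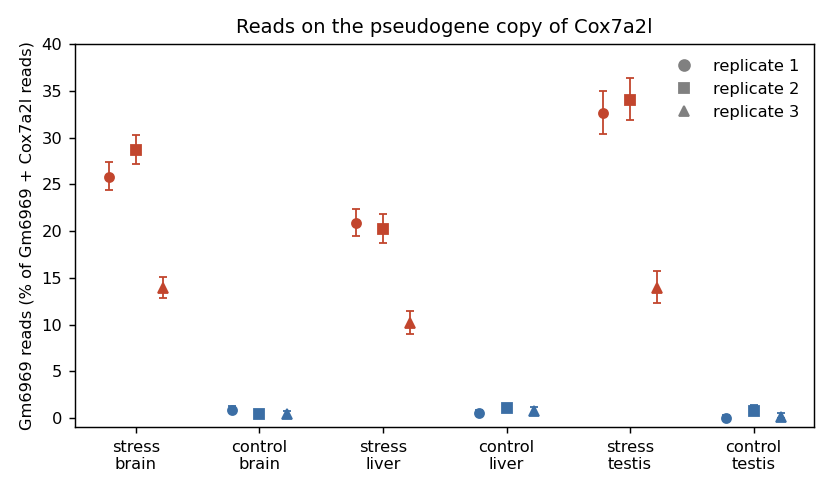
Reads counted on the pseudogene Gm6969 as a percentage of those counted on Gm6969 and Cox7a2l together (y axis), for each stress and control library of brain, liver and testis (x axis), with 95% Wilson intervals as bars and a symbol for each replicate number. Stress libraries sit between 10.1% and 34.0% with replicate 3 lowest in each tissue, and control libraries at 1.09% or less.

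Processed pseudogenes were described as a class too. Unadjusted edgeR p was under 0.05 for 63 of 582 processed pseudogenes (10.8%), against 1118 of 14921 protein-coding genes (7.49%), and the groups did not overlap in 17.5% and 13.7% of them. Gm5805, a processed pseudogene 96.93% identical to the ribosomal protein gene Rps14, was chosen after its values were seen. It had 3.92, 3.96 and 2.87 CPM in stress brain and 8.01, 8.63 and 8.205 CPM in control brain, with no overlap (log2 fold change -1.21 ± 0.17, edgeR adjusted p = 0.351). Counts of such genes depend on how the authors placed reads that match 2 loci, a step that the sources used here do not state.

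The protein-coding gene with the smallest p was Rpl38, a protein of the large ribosomal subunit. Rpl38 had 109.2, 103.4 and 112.1 CPM in stress brain and 67.9, 64.4 and 68.6 CPM in control brain. The groups were tight and well apart, and Rpl38 had a fold change of 0.69 ± 0.07 on the log2 scale (edgeR adjusted p = 0.0860, adjusted p = 0.0120 in the blocked edgeR fit, given after other genes as the blocked adjusted p). Rps29, of the small subunit, had 201.0, 178.2 and 238.4 CPM in stress brain and 129.6, 112.0 and 128.2 CPM in control brain (log2 fold change 0.74 ± 0.12, edgeR adjusted p = 0.381, blocked adjusted p = 0.0155). Rps28, also of the small subunit, had 71.6, 63.3 and 76.2 CPM in stress brain and 40.8, 38.6 and 49.1 CPM in control brain (log2 fold change 0.72 ± 0.12, edgeR adjusted p = 0.381, blocked adjusted p = 0.0156). The ribosomal protein genes were split in direction: 34 of 80 had a positive and 46 a negative fold change, with a median of -0.03 against -0.003 over all genes tested. Unadjusted p was under 0.05 for 8 of the 80 in the higher direction and 3 in the lower (4.16% and 3.38% over all genes). All stress libraries lay above all control libraries in 6 and below them in 4 (7.21% and 6.64% over all genes). Among the lower ones were Rps25 (-0.21 ± 0.07, edgeR adjusted p = 0.602) and Rps7 (-0.22 ± 0.08, edgeR adjusted p = 0.602), both chosen after their values were seen.

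Nuclear genes for respiratory chain subunits gave the same kind of picture, with a median log2 fold change of -0.004 and 41 of 83 positive. Atp5k, the e subunit of ATP synthase, had 61.4, 60.7 and 71.2 CPM in stress brain and 40.5, 37.6 and 41.4 CPM in control brain. All stress libraries exceeded all control libraries (log2 fold change 0.69 ± 0.09, edgeR adjusted p = 0.280, blocked adjusted p = 0.0193). Cox6c, a subunit of cytochrome c oxidase, had 237.4, 215.8 and 232.3 CPM in stress brain and 272.6, 261.5 and 276.2 CPM in control brain (-0.24 ± 0.07, edgeR adjusted p = 0.532). Of the 83, 6 had an unadjusted p under 0.05 in the higher direction and 3 in the lower (4.16% and 3.38% over all genes). Of them, 7 lay above and 12 below every control library (7.21% and 6.64% over all genes). The 13 messenger RNAs encoded by mitochondrial DNA had a median of -0.30, with 12 negative and 5 below every control library. With replicate 3 of both groups left out the median was -0.07 and 6 of 13 were positive. In that fit 4 of 13 were lower at an unadjusted p under 0.05. mt-Nd5, a subunit of complex I, had 2614, 2205 and 2125 CPM in stress brain and 3096, 3203 and 3535 CPM in control brain (-0.50 ± 0.10, edgeR adjusted p = 0.387). mt-Nd6, a complex I subunit encoded on the other strand of the mitochondrial genome, had 548, 420 and 443 CPM in stress brain and 676, 656 and 759 CPM in control brain (-0.57 ± 0.12, edgeR adjusted p = 0.387). The list's median was -0.06 without control brain replicate 3.

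Chaperones were the list with the most even shift. This list, like the others, was chosen with earlier results of these data known, so its counts describe and do not test. Heat shock proteins fold damaged or newly made proteins, and co-chaperones bring them clients or speed their ATP cycle. All 30 listed genes had a positive log2 fold change, with a median of 0.22 against -0.003 over all genes. In 15 of 30 the unadjusted edgeR p was under 0.05 (4.16% of all genes in the higher direction). In 21 every stress library lay above every control library (7.21% of all genes), and 0 passed adjustment in either fit. Without replicate 3 of both groups, 27 of 30 were positive with a median of 0.22, and 14 had an unadjusted p under 0.05. Relative to the control mean, the list's median was 0.21, 0.21 and 0.35 in stress brain replicates 1, 2 and 3 and -0.01, 0.02 and -0.01 in control brain replicates 1, 2 and 3.

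Promoters of 4 members are shown because the members shifted together and heat shock factor, the activator of this class, binds repeated GAA units in alternating direction. The motif searched was 3 such units, GAANNTTCNNGAA or TTCNNGAANNTTC. These 2 strings are reverse complements read on either strand, and matches may overlap. Of 23 list members with a RefSeq promoter (250 bases before to 50 after the start, build GRCm38.p6), 4 held it (17.4%), against 73 of 12442 tested genes with a promoter (0.587%). Hspd1 and Hspe1 lie head to head and hold the same stretch, so these 4 members have 3 separate stretches. A shorter core of 2 units, GAANNTTC or TTCNNGAA, stood in 13 of 23 members (56.5%) and in 1751 of 12442 tested genes (14.1%). A match is a string of letters and not a proven site. The list was drawn from genes of the class that heat shock factor activates, so a higher share of the motif follows from how the list was made. The part of heat shock factor in the values of stress brain was not tested. Capitals mark the 3 unit motif in Chordc1 (chr9:18292017-18292316, plus strand) and Hspe1 (chr1:55087898-55088197, plus strand), and the 2 unit core in Hspb1 (chr5:135887669-135887968, plus strand) and Hspa1b (chr17:34959189-34959488, minus strand).
Chordc1: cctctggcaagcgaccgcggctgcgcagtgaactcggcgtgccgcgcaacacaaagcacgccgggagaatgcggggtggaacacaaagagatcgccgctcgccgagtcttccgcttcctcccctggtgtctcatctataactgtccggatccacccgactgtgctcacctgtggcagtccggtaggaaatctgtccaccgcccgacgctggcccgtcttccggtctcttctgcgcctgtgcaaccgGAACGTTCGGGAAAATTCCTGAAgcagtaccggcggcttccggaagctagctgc
Hspe1: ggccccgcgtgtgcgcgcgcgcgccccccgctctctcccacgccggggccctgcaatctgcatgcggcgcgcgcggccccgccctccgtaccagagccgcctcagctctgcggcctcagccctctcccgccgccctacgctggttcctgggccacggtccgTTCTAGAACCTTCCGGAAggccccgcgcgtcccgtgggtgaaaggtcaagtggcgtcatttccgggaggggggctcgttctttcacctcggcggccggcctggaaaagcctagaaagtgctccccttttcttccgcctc
Hspb1: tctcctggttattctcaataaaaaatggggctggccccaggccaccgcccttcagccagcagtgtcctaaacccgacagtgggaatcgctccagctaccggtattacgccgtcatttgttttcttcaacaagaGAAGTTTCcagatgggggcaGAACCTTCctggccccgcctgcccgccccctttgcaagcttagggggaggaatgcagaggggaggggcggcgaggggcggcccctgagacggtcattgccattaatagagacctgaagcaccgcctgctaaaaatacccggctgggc
Hspa1b: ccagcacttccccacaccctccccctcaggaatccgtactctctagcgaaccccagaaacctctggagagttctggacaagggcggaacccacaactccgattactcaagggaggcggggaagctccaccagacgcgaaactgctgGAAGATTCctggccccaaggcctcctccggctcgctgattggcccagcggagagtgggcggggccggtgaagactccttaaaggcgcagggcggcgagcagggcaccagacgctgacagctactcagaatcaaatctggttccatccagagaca

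The 4 members with the long motif, Chordc1, Hsph1, Hspe1 and Hspd1, had log2 fold changes of 0.16 to 0.40 with a median of 0.34. The 19 members without it had a median of 0.30 and a range of 0.01 to 1.47, and held the largest shifts of the list. Hspa1b, the stress-induced HSP70, had 46.7, 40.1 and 62.6 CPM in stress brain and 17.3, 22.3 and 14.3 CPM in control brain. The lowest stress library had more than the highest control library by a wide margin (log2 fold change 1.47 ± 0.21, edgeR adjusted p = 0.351). Its near-identical neighbour Hspa1a gave 1.12 ± 0.23 (edgeR adjusted p = 0.387), and reads of these 2 genes may have been split between them. Hspb1, the small heat shock protein HSP27 in humans, had 21.4, 16.5 and 18.4 CPM in stress brain and 7.08, 9.80 and 9.45 CPM in control brain (1.10 ± 0.16, edgeR adjusted p = 0.357). Serpinh1, a collagen chaperone of the endoplasmic reticulum, had 27.6, 25.4 and 25.4 CPM in stress brain and 15.6, 15.9 and 17.2 CPM in control brain (0.69 ± 0.09, edgeR adjusted p = 0.280). Groups did not overlap for either gene.

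Other members of the list had smaller differences. Chordc1, an HSP90 co-chaperone, had 78.9, 79.2 and 87.5 CPM in stress brain and 65.2, 58.4 and 62.6 CPM in control brain (0.40 ± 0.08, edgeR adjusted p = 0.387). Stip1, which links HSP70 and HSP90, had 192.6, 189.7 and 219.0 CPM in stress brain and 154.5, 149.4 and 156.5 CPM in control brain (0.38 ± 0.08, edgeR adjusted p = 0.387). Fkbp4, a co-chaperone that carries steroid receptors towards the nucleus, gave 0.30 ± 0.09 (edgeR adjusted p = 0.536), with no overlap. Hspa8, the cognate HSP70, had 0.18 ± 0.08 (edgeR adjusted p = 0.666) with no overlap, and Hsp90aa1 had 0.05 ± 0.09 (edgeR adjusted p = 0.928). Hsf1, the heat shock factor itself, had 51.9, 44.5 and 45.6 CPM in stress brain and 38.4, 39.1 and 46.7 CPM in control brain, which overlapped.

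Folding genes of the endoplasmic reticulum had a median of 0.17, with 21 of 28 positive. Unadjusted p was under 0.05 in 13 in the higher and 2 in the lower direction (4.16% and 3.38% over all genes). Of the 28, 14 lay above and 2 below every control library (7.21% and 6.64% over all genes). Without replicate 3 of both groups the median was 0.14, with 8 in the higher and 1 in the lower direction. Hspa5, the HSP70 of the endoplasmic reticulum, had 327, 347 and 382 CPM in stress brain and 268, 216 and 263 CPM in control brain (0.50 ± 0.10, edgeR adjusted p = 0.387). Manf, a secreted factor released under folding stress, had 52.1, 48.4 and 50.4 CPM in stress brain and 37.6, 33.6 and 38.5 CPM in control brain (0.46 ± 0.08, edgeR adjusted p = 0.387). Hyou1 and Pdia6, a chaperone and a disulfide isomerase of the same compartment, gave 0.35 ± 0.07 and 0.31 ± 0.06. Creld2, another gene induced by misfolded protein, gave 0.55 ± 0.11 (edgeR adjusted p = 0.387 for all 3), and all stress libraries exceeded all control libraries for each. Not every member had this direction. Ppp1r15a, which restarts translation by removing phosphate from eIF2α, had 16.3, 16.1 and 14.8 CPM in stress brain and 22.5, 21.8 and 20.4 CPM in control brain (-0.46 ± 0.09, edgeR adjusted p = 0.387). Atf4 and Ddit3, transcription factors of the same stress response, had 0.02 ± 0.08 and 0.11 ± 0.13 with overlapping groups (edgeR adjusted p = 0.970 and 0.874).

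**Figure D2:**
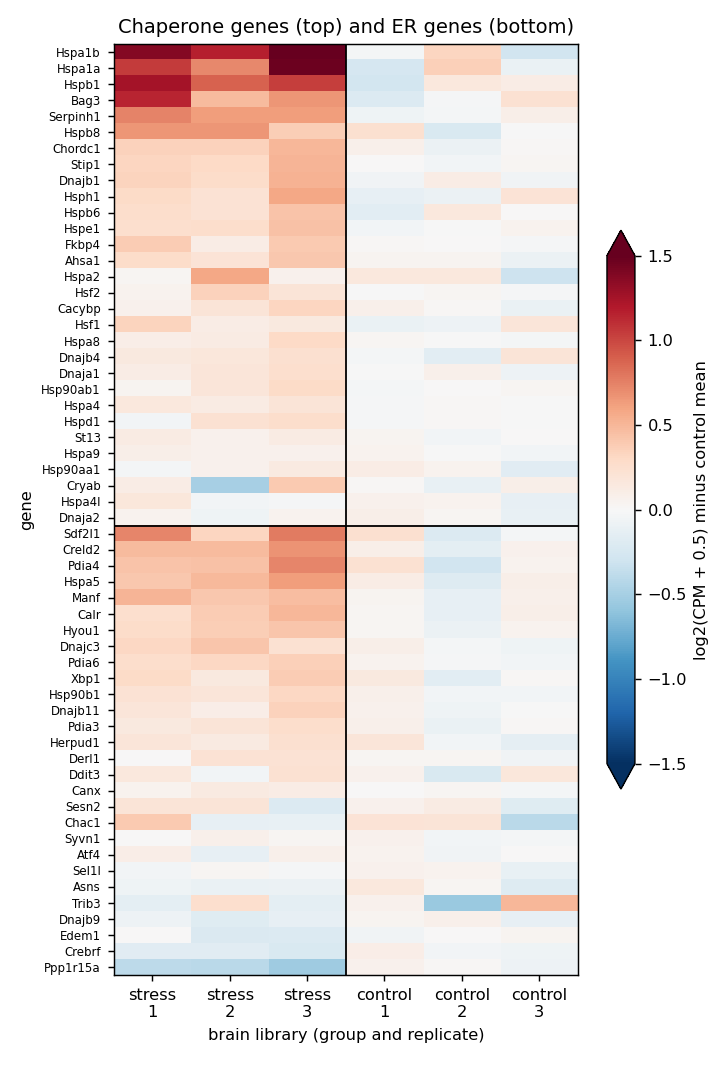
Log2(CPM + 0.5) minus the mean of the 3 control libraries (colour) for 30 heat shock and co-chaperone genes above the line and 28 endoplasmic reticulum genes under it, in each stress (left) and control (right) brain library; rows run from the highest to the lowest log2 fold change within a list. Colour saturates at 1.5. The 3 stress columns are red for most of both lists, and Ppp1r15a at the foot is blue in all 3.

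Glucocorticoid-induced genes had a median of 0.20, with 22 of 29 positive. Unadjusted p was under 0.05 in 11 in the higher and 2 in the lower direction (4.16% and 3.38% over all genes). Of the 29, 12 lay above and 1 below every control library (7.21% and 6.64% over all genes). Without replicate 3 of both groups the median was 0.28, with 12 in the higher and 2 in the lower direction. Fkbp5 had 43.4, 59.0 and 56.9 CPM in stress brain and 24.9, 29.6 and 33.3 CPM in control brain. Its groups did not overlap, and Fkbp5 differed by 0.86 ± 0.15 on the log2 scale (edgeR adjusted p = 0.385, blocked adjusted p = 0.0120). Zbtb16, a zinc finger repressor, had 88.6, 58.2 and 46.7 CPM in stress brain and 43.8, 40.3 and 22.01 CPM in control brain (0.87 ± 0.31, edgeR adjusted p = 0.611, blocked adjusted p = 0.0403). Its stress libraries all lay above its control libraries, the third only just above control replicate 1. Mertk, a receptor for engulfing dead cells, had 43.6, 48.3 and 44.6 CPM in stress brain and 34.8, 30.9 and 32.0 CPM in control brain (0.48 ± 0.08, edgeR adjusted p = 0.385). Plin4, a lipid droplet protein, had 6.81, 7.80 and 12.2 CPM in stress brain and 3.69, 3.79 and 2.80 CPM in control brain (1.38 ± 0.26, edgeR adjusted p = 0.387). Sult1a1, a sulfotransferase, gave 0.80 ± 0.17 (edgeR adjusted p = 0.387), with no overlap.

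Sgk1, Per1 and Tsc22d3, widely used early targets of the receptor, differed less. Sgk1, a kinase, had 81.4, 68.9 and 78.6 CPM in stress brain and 67.5, 76.4 and 99.0 CPM in control brain (-0.09 ± 0.14, edgeR adjusted p = 0.924). Per1, which is also a clock gene, had 248.7, 165.6 and 174.3 CPM in stress brain and 147.9, 203.3 and 246.9 CPM in control brain (-0.02 ± 0.22, edgeR adjusted p = 0.990). Tsc22d3, the leucine zipper protein GILZ, had 73.7, 62.1 and 65.4 CPM in stress brain and 55.1, 61.4 and 53.3 CPM in control brain (0.24 ± 0.09, edgeR adjusted p = 0.638). The first 2 genes overlapped between groups and their direction changed with the libraries kept, while Tsc22d3 did not overlap. Arl4d, a small GTPase on the list, went the other way with 30.3, 18.7 and 32.7 CPM in stress brain and 42.4, 45.3 and 53.4 CPM in control brain (-0.79 ± 0.20, edgeR adjusted p = 0.482).

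Most receptors and peptides of the stress axis that were tested showed little. Nr3c1 had 134.9, 101.2 and 109.7 CPM in stress brain and 146.3, 136.0 and 119.8 CPM in control brain (-0.22 ± 0.12, edgeR adjusted p = 0.724). Nr3c2 had 57.3, 68.0 and 46.4 CPM in stress brain and 54.7, 61.5 and 50.1 CPM in control brain (0.05 ± 0.15, edgeR adjusted p = 0.965). Crh, the releasing hormone that starts the axis, had 5.32, 4.89 and 6.23 CPM in stress brain and 7.20, 5.33 and 4.91 CPM in control brain (-0.09 ± 0.20, edgeR adjusted p = 0.947). All 3 overlapped between groups. Of 21 listed members 14 were tested, with a median of 0.11. The co-chaperone Fkbp4, in the higher direction, was the 1 with an unadjusted p under 0.05. Fkbp4 lay above and Pomc below every control library. The peptide genes Avp and Oxt were seen mainly in stress brain replicate 3, at 19.3 and 8.85 TPM. In control brain they had at most 0.787 and 0.390 TPM. Avp and Oxt were chosen after their values were seen. Among 18 clock genes the median was -0.03. Per2, a core repressor of the clock chosen after its values were seen, was the 1 with unadjusted p under 0.05 in the higher direction, at 89.2, 80.5 and 84.4 CPM in stress brain and 51.6, 51.3 and 67.0 CPM in control brain (0.58 ± 0.12, edgeR adjusted p = 0.387).

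Immediate early genes leaned lower in stress brain. Of 37 tested, 31 had a negative fold change. In the lower direction 13 had an unadjusted p under 0.05, and in the higher 0 (3.38% and 4.16% over all genes). Below every control library lay 7 (6.64% over all genes). The median was -0.29, and -0.56 without stress brain replicate 1. Without replicate 3 of both groups it was -0.24, with 15 of 37 lower and 0 higher at that threshold. Relative to the control mean, the list's median was -0.04, -0.37 and -0.52 in stress brain replicates 1, 2 and 3 and 0.02, 0.25 and -0.15 in control brain replicates 1, 2 and 3. Stress brain replicate 1 therefore lay within the control range for the list as a whole. Cortex markers, which summed to 754, 518 and 570 TPM in stress brain replicates 1, 2 and 3 and to 830, 719 and 632 TPM in control brain replicates 1, 2 and 3, were also lowest in stress replicates 2 and 3, and their part in the immediate early gene values was not tested.

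Npas4, a transcription factor that neuronal firing induces, had 56.9, 33.9 and 28.2 CPM in stress brain and 159.2, 123.9 and 57.3 CPM in control brain. The highest stress library lay just under the lowest control library (log2 fold change -1.52 ± 0.40, edgeR adjusted p = 0.482, blocked adjusted p = 0.0120). Btg2 had 41.7, 40.8 and 27.4 CPM in stress brain and 148.5, 168.5 and 59.1 CPM in control brain (-1.77 ± 0.37, edgeR adjusted p = 0.387, blocked adjusted p = 0.0120). Dusp1, a phosphatase that switches off MAP kinases and is also on the glucocorticoid list, had 101.3, 71.9 and 57.1 CPM in stress brain and 182.3, 184.1 and 95.8 CPM in control brain (-1.0 ± 0.29, edgeR adjusted p = 0.532, blocked adjusted p = 0.0238). In all 3 genes replicate 3 had the lowest level of its own group. Egr4, a zinc finger factor, gave -0.89 ± 0.20 (edgeR adjusted p = 0.399). Fosb, a subunit of the AP-1 factor, gave -0.96 ± 0.23 (edgeR adjusted p = 0.442), and Ccn1, a matrix protein also known as Cyr61, gave -1.75 ± 0.42 (edgeR adjusted p = 0.454). These 3 did not overlap between groups.

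Fos had 95.7, 50.6 and 46.3 CPM in stress brain and 194, 218 and 91.6 CPM in control brain (-1.39 ± 0.38, edgeR adjusted p = 0.519), so that stress replicate 1 and control replicate 3 met. Arc, which remodels synapses, had 646, 221 and 315 CPM in stress brain and 667, 777 and 495 CPM in control brain (-0.71 ± 0.37, edgeR adjusted p = 0.700). Stress brain replicate 1 thus had nearly the control level of Arc and of Egr1 (705 CPM, against 628 to 676 CPM in control brain). Nr4a3 and Bdnf had 0.23 ± 0.33 and 0.19 ± 0.18 with overlapping groups (edgeR adjusted p = 0.906 and 0.839). Fos, Arc, Egr1, Nr4a3 and Bdnf were chosen after their values were seen.

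**Figure D3:**
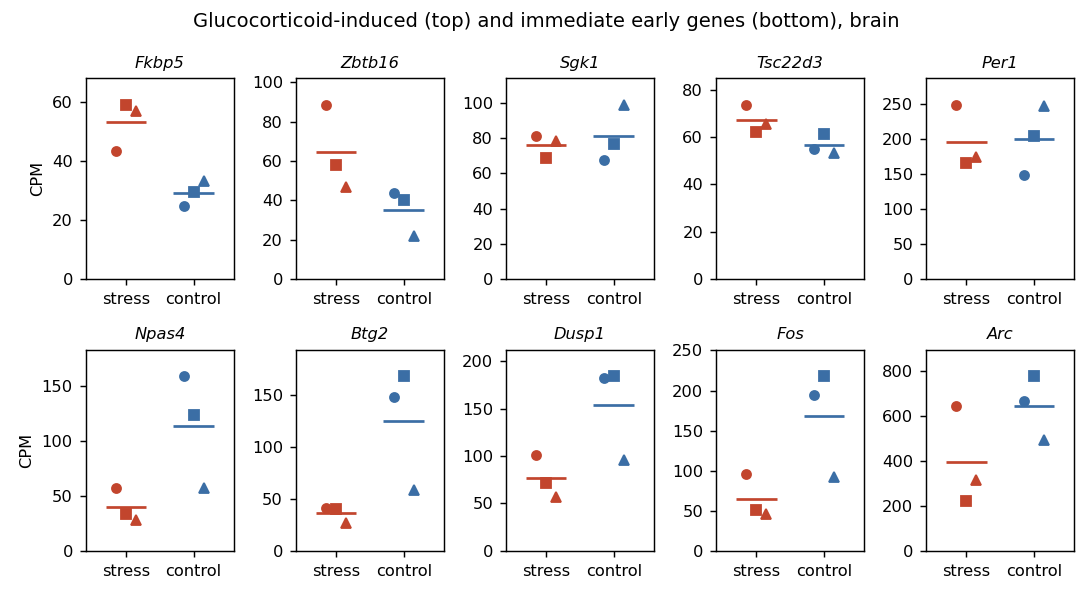
CPM of 5 glucocorticoid-induced genes (top) and 5 immediate early genes (bottom) in stress (left) and control (right) brain libraries, with a symbol for each replicate number and the group mean as a line; each y axis starts at 0. Fkbp5 and Zbtb16 lie higher in every stress library and Sgk1 and Per1 overlap, while Npas4 and Btg2 lie lower in every stress library and Dusp1, Fos and Arc overlap.

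Astrocytes feed neurons, clear glutamate and carry the glucocorticoid receptor. Their markers had a median of 0.17, with 17 of 19 positive. In the higher direction 6 had an unadjusted p under 0.05 (4.16% over all genes), and 8 lay above every control library (7.21%). Leaving out replicate 3 of both groups, 17 of 19 were also positive and 10 were past that threshold. The listed markers summed to 8860, 8356 and 8012 TPM in stress brain replicates 1, 2 and 3, all above the 7201, 7067 and 7214 TPM of control brain replicates 1, 2 and 3. Aldoc, a glycolytic enzyme of astrocytes, had 817, 751 and 782 CPM in stress brain and 637, 672 and 637 CPM in control brain (0.27 ± 0.07, edgeR adjusted p = 0.462). Apoe, a lipid carrier, had 1629, 1633 and 1663 CPM in stress brain and 1329, 1271 and 1473 CPM in control brain (0.27 ± 0.08, edgeR adjusted p = 0.532). Gjb6, a gap junction protein that is on the glucocorticoid list too, gave 0.54 ± 0.20, and Clu, an extracellular chaperone, gave 0.17 ± 0.06 (edgeR adjusted p = 0.638 and 0.613). The part of astrocyte content in the values of the glucocorticoid-induced genes was not tested. In bulk RNA, fewer or more cells of a type and less or more RNA per cell cannot be told apart.

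Genes outside the lists stood beside these. Mt3, the metallothionein of the brain, had 252.0, 242.5 and 286.1 CPM in stress brain and 159.2, 144.6 and 177.9 CPM in control brain (0.70 ± 0.10, edgeR adjusted p = 0.357, blocked adjusted p = 0.0120). Sparc, a matrix glycoprotein made by glia and vessels, had 265.9, 279.9 and 323.6 CPM in stress brain and 147.3, 176.3 and 187.9 CPM in control brain (0.77 ± 0.12, edgeR adjusted p = 0.357, blocked adjusted p = 0.0120). Ddo, the oxidase that degrades D-aspartate, had 8.27, 8.96 and 8.94 CPM in stress brain and 3.18, 3.21 and 4.19 CPM in control brain (1.30 ± 0.17, edgeR adjusted p = 0.280, blocked adjusted p = 0.0370). None of these 3 overlapped between groups. Slc5a3, which imports myo-inositol as an osmolyte, had 39.8, 57.8 and 63.2 CPM in stress brain and 27.2, 28.2 and 35.0 CPM in control brain (0.83 ± 0.18, edgeR adjusted p = 0.402, blocked adjusted p = 0.0381). Metallothioneins Mt1 and Mt2, which glucocorticoid induces, gave only 0.14 ± 0.09 and 0.19 ± 0.11 (edgeR adjusted p = 0.736 and 0.728).

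Region and ventricle markers differed between single libraries. Choroid plexus makes cerebrospinal fluid in the ventricles, and its markers had a median of 1.42, with 14 of 15 positive. In the higher direction 9 had an unadjusted p under 0.05 (4.16% over all genes), and 6 lay above every control library (7.21%). Leaving out replicate 3 of both groups, the median was 1.56 and 6 were past that threshold. All 18 listed genes, the 3 below the filter included, summed to 222, 1664 and 1154 TPM in stress brain replicates 1, 2 and 3, and to 238, 220 and 199 TPM in control brain replicates 1, 2 and 3. In stress brain replicate 1 this sum was within the control range, and most of it was Enpp2, a lysophospholipase that other brain cells also make, at 176, 192 and 227 TPM in stress brain and 208, 173 and 174 TPM in control brain. The list's median difference from the control mean, which weighs each tested gene alike, was 0.26, 1.67 and 1.17 in stress brain replicates 1, 2 and 3 and 0.05, 0.18 and -0.14 in control brain replicates 1, 2 and 3, so by that measure stress replicate 1 lay just above the controls. Enpp2 was chosen after its values were seen. Ttr, the transthyretin gene that leads this tissue, made up 10.2, 1390 and 871 TPM of the stress sums and 1.80, 16.1 and 0.745 TPM of the control sums (log2 fold change 6.94 ± 1.75, edgeR adjusted p = 0.465, blocked adjusted p = 0.0191). Otx2, the homeobox factor of the plexus, had 2.83, 2.07 and 1.81 CPM in stress brain and 0, 0 and 0.416 CPM in control brain (3.92 ± 0.98, edgeR adjusted p = 0.458). Its groups did not overlap. Prlr, the prolactin receptor, had 2.49, 6.17 and 8.22 CPM in stress brain and 1.40, 1.54 and 0.804 CPM in control brain (2.17 ± 0.46, edgeR adjusted p = 0.387). Kl, the klotho gene, gave 1.27 ± 0.33, and Calml4 gave 2.5 ± 0.71 (edgeR adjusted p = 0.483 and 0.532).

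Hypothalamus markers, of which 8 of 20 passed the filter, summed to 26.1, 103 and 191 TPM in stress brain replicates 1, 2 and 3 and to 18.0, 22.2 and 42.5 TPM in control brain replicates 1, 2 and 3. Six6, a defining transcription factor, was listed at 0 in all 6 libraries. Trh, the thyrotropin-releasing hormone, had 3.26, 14.7 and 7.63 CPM in stress brain and 0.685, 0.987 and 1.497 CPM in control brain (3.01 ± 0.57, edgeR adjusted p = 0.387, blocked adjusted p = 0.0238). Its groups did not overlap. Peptides of the lateral hypothalamus were seen almost only in stress brain replicate 3: Pmch had 0, 0.134 and 42.3 TPM and Hcrt had 0, 0.134 and 26.3 TPM in stress brain replicates 1, 2 and 3, against at most 0.485 and 0.838 TPM in control brain. Pmch and Hcrt were chosen after their values were seen. Pomc, a hypothalamus marker that is on the stress axis list too, went the other way. It had 0.684, 1.34 and 1.12 CPM in stress brain and 1.91, 1.73 and 1.41 CPM in control brain, with no overlap (-0.68 ± 0.32, edgeR adjusted p = 0.690). Of the 8 tested hypothalamus genes, 7 had a positive and 1 a negative log2 fold change. Their median was 0.94, and 1.93 over 7 genes with replicate 3 of both groups left out.

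Another 4 genes called with the block have known regional patterns. Lhx9, a thalamic factor, had 3.76, 8.26 and 2.87 CPM in stress brain and 0.834, 1.82 and 0.360 CPM in control brain (2.31 ± 0.62, edgeR adjusted p = 0.496, blocked adjusted p = 0.0191). C1ql2, a synaptic protein of dentate granule cells, had 22.3, 17.7 and 5.64 CPM in stress brain and 7.08, 2.84 and 0.998 CPM in control brain (2.07 ± 0.72, edgeR adjusted p = 0.602, blocked adjusted p = 0.0120). Igsf1, a membrane glycoprotein, gave 1.70 ± 0.38 (edgeR adjusted p = 0.413, blocked adjusted p = 0.0153). Nnat, an imprinted proteolipid, gave 0.80 ± 0.27 (edgeR adjusted p = 0.602, blocked adjusted p = 0.0275). Lhx9, Igsf1 and Nnat did not overlap between groups and C1ql2 did. The thalamus and habenula list, which holds Lhx9, had a median of 0.05 with 10 of 16 positive. At an unadjusted p under 0.05, 2 of the 16 were higher and 2 lower, against 4.16% and 3.38% of all genes tested. The lower ones were Gpr151 and Cplx3, at -1.04 ± 0.33 and -0.55 ± 0.16 (edgeR adjusted p = 0.594 and 0.536). The part of dissection in the values of Ttr, Trh, Lhx9, C1ql2, Igsf1 and Nnat was not tested.

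Cortex markers leaned lower, with a median of -0.31 and 15 of 17 negative, and a median of -0.33 without replicate 3 of both groups. Cux1, a factor of upper layers, had 80.2, 79.4 and 78.9 CPM in stress brain and 104.4, 96.0 and 94.8 CPM in control brain (-0.31 ± 0.07, edgeR adjusted p = 0.387). Rorb, a layer 4 factor, gave -0.63 ± 0.17 and Tbr1, a deep layer factor, gave -0.40 ± 0.14 (edgeR adjusted p = 0.530 and 0.602). All 13 striatum markers had a negative fold change with a median of -0.50. Those fold changes followed the replicate 3 libraries: Drd1, the D1 dopamine receptor, had 6.71, 21.8 and 77.3 CPM in stress brain and 10.6, 10.3 and 124 CPM in control brain (-0.45 ± 1.13, edgeR adjusted p = 0.953). Without replicate 3 of both groups the direction turned, with 12 of 13 striatum markers positive and a median of 0.45. Drd1 was chosen after its values were seen.

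**Figure D4:**
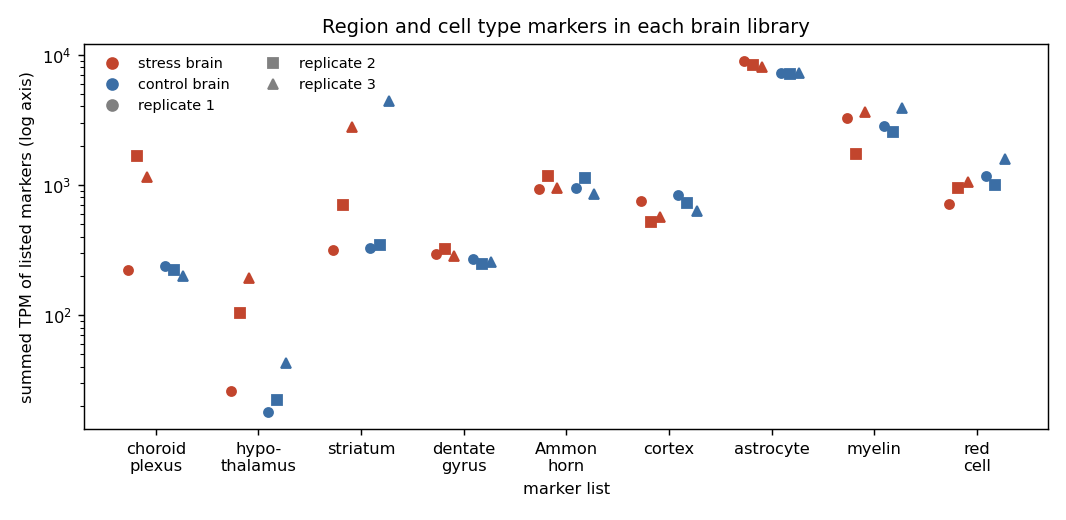
Summed TPM of listed markers of 6 regions and 3 cell types (log y axis) in each stress (left) and control (right) brain library, with a symbol for each replicate number. Summed choroid plexus markers stand high in stress replicates 2 and 3, striatum markers in replicate 3 of both groups, and astrocyte markers in all 3 stress libraries.

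Markers of other cells moved little or unevenly. Myelin genes had a median of -0.17 with 19 of 20 negative and 2 below the unadjusted threshold, and summed to 3244, 1739 and 3634 TPM in stress brain replicates 1, 2 and 3 and 2820, 2541 and 3873 TPM in control brain replicates 1, 2 and 3. Stress brain replicate 2 was the low library. Opalin, a myelin surface protein, had 14.0, 6.05 and 12.7 CPM in stress brain and 21.7, 19.2 and 27.2 CPM in control brain, with no overlap (-1.06 ± 0.30, edgeR adjusted p = 0.532). Microglia markers had a median of -0.05, with 16 of 20 negative, 4 with an unadjusted p under 0.05 in the lower direction and 5 below every control library. Over all genes tested, 3.38% were lower at that threshold and 6.64% lay below every control library. Without replicate 3 of both groups the microglia median was -0.02, with 8 of 20 positive and 0 lower at that threshold. The receptor P2ry12 had 24.0, 26.0 and 23.9 CPM in stress brain and 32.3, 27.9 and 28.7 CPM in control brain (-0.27 ± 0.09, edgeR adjusted p = 0.602). Cytokine and reactive glia genes had a median of 0.22 over 15 tested. Ptgs2, a prostaglandin synthase that neurons also induce with firing, was the only one with an unadjusted p under 0.05, and it was lower (-0.66 ± 0.18, edgeR adjusted p = 0.507). Ptgs2 was chosen after its values were seen. Gfap had 167, 143 and 117 CPM in stress brain and 122, 136 and 76.3 CPM in control brain, which overlapped.

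Among vessel and blood genes, Cldn5 was one of the protein-coding genes of smallest p in the lower direction, and 2 haemoglobin genes were called lower with the block. Cldn5, the tight junction protein of the blood-brain barrier, had 24.2, 23.5 and 24.9 CPM in stress brain and 34.8, 34.5 and 36.9 CPM in control brain. The 2 groups were tight and apart (log2 fold change -0.55 ± 0.08, edgeR adjusted p = 0.351). The 20 endothelial markers as a list had a median of 0.04. At unadjusted p under 0.05, 0 were higher and 3 lower, against 4.16% and 3.38% of all genes tested. Itm2a and Tek were the other 2 lower ones, at -0.20 ± 0.08 and -0.32 ± 0.13 (edgeR adjusted p = 0.652 and 0.659). The summed level of the list was 594, 542 and 510 TPM in stress brain and 534, 536 and 551 TPM in control brain. Haemoglobin Hba-a1 had 41.3, 34.7 and 61.9 CPM in stress brain and 96.3, 63.7 and 167.6 CPM in control brain (-1.25 ± 0.36, edgeR adjusted p = 0.532, blocked adjusted p = 0.0120). Hbb-bs, the beta chain, had 23.2, 19.2 and 36.3 CPM in stress brain and 45.0, 28.5 and 74.1 CPM in control brain (-0.91 ± 0.36, edgeR adjusted p = 0.653, blocked adjusted p = 0.0330). Replicate 3 had the highest level of its group for both genes, and Hbb-bs overlapped. The other haemoglobin genes, Hba-a2 and Hbb-bt, gave -0.15 ± 0.41 and -0.52 ± 0.41 with overlapping groups (edgeR adjusted p = 0.956 and 0.801). Red blood cell markers as a list had a median of -0.715 over 6 tested, with 5 negative and 3 lower at an unadjusted p under 0.05. Over all genes tested, 3.38% were lower at that threshold. The red cell membrane gene Epb42 was listed at 0 in all 6 libraries. The share of blood left in the tissue in these haemoglobin values was not tested. Reads of Hba-a1 and Hba-a2, which are near-identical copies, may have been split between them.

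The remaining genes with the smallest p in the lower direction belong to no list. Zfp945 and Zfp874a, zinc finger proteins, gave -0.69 ± 0.12 and -0.51 ± 0.10 (edgeR adjusted p = 0.385 and 0.387). Fhl2, a LIM domain cofactor, had 26.6, 23.6 and 26.2 CPM in stress brain and 38.6, 38.1 and 33.1 CPM in control brain (-0.52 ± 0.10, edgeR adjusted p = 0.387). St6gal2, a sialyltransferase, had 32.5, 36.8 and 35.99 CPM in stress brain and 55.8, 51.6 and 44.3 CPM in control brain (-0.53 ± 0.11, edgeR adjusted p = 0.387). Rsph10b, of cilia, and Gpr21, an orphan receptor, gave -0.97 ± 0.18 and -1.03 ± 0.20 (edgeR adjusted p = 0.387 for both). All 6 lay below every control library.

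For several other lists the members past the unadjusted threshold are given as counts. Over all genes tested, 4.16% were higher and 3.38% lower at that threshold. Cholesterol synthesis genes had a median of -0.03 with 0 of 24 higher and 1 lower, and antioxidant genes had a median of 0.01 with 1 of 22 higher and 0 lower. Interferon-stimulated genes had a median of 0.11 with 3 of 30 higher and 1 lower, but leaving out replicate 3 of both groups the median was 0.26, with 24 of 30 positive, 2 higher and 1 lower. Cerebellum markers had a median of 0.12 with 2 of 13 higher and 0 lower. These markers summed to 756, 580 and 850 TPM in stress brain and 754, 702 and 975 TPM in control brain, which overlapped. Their median difference from the control mean was 0.23, 0.27 and 0.14 in stress brain replicates 1, 2 and 3 and -0.02, -0.004 and 0.005 in control brain replicates 1, 2 and 3, but with replicate 3 of both groups left out the list's median was 0.03. Pan-neuronal genes had a median of -0.001 with 0 of 15 in either direction. Ionotropic glutamate and GABA receptor subunits had a median of 0.01 with 3 of 29 higher and 1 lower.

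**Figure D5:**
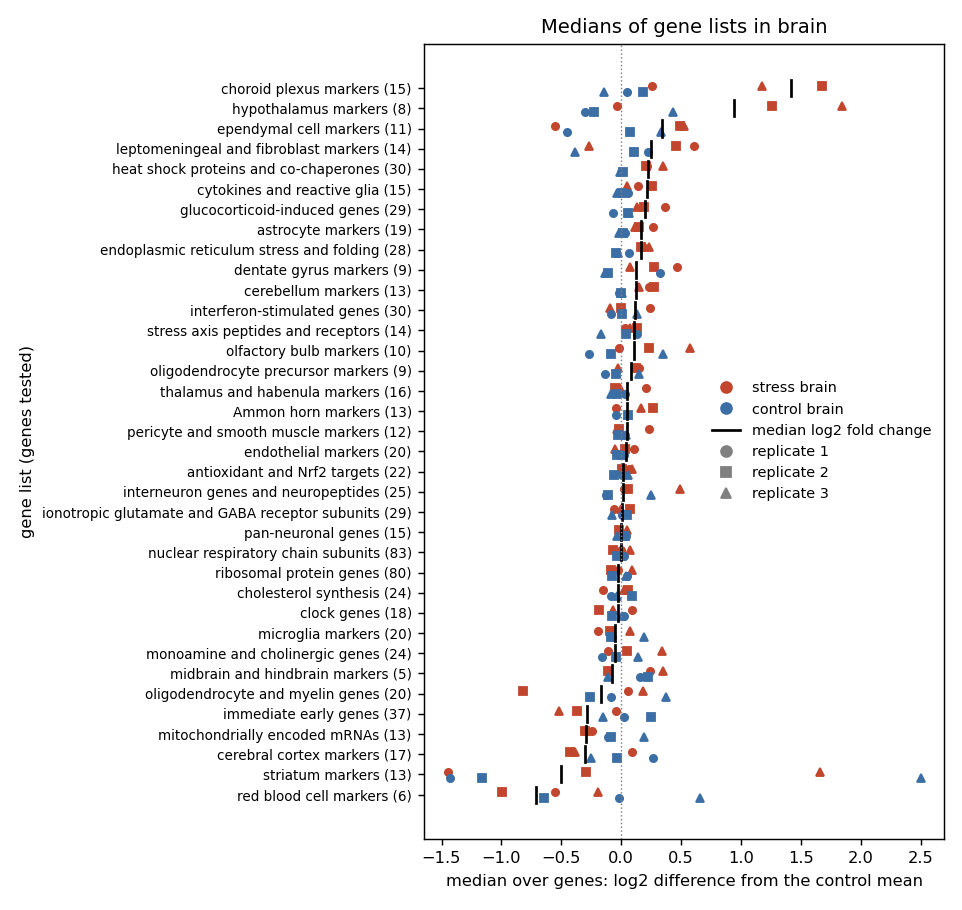
Median log2 difference from the control mean over the genes of each of 36 lists (y axis, with the number of genes tested), for each stress and control brain library, with the median log2 fold change as a black bar and that of all genes tested as a dotted line. Heat shock, endoplasmic reticulum, glucocorticoid-induced, astrocyte, cerebellum and choroid plexus lists lie further right in all 3 stress libraries than in any control library, and choroid plexus, hypothalamus and striatum lists are spread widely between libraries of 1 group.

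The stress effect in brain was then set against that in the other tissues by an edgeR interaction test, over 12 libraries for each pair. Against liver, 37 of 18962 genes differed at an adjusted p under 0.05 (0.195%), and 2 did with the animal as a block (0.0105%). Against testis, 0 of 22391 differed in either fit (0% and 0%). Of the genes named here, Tsc22d3 differed from liver. Its log2 fold change was 0.24 in brain and 1.75 in liver, and brain minus liver was -1.51 ± 0.25 (edgeR adjusted p = 0.0394, and 0.106 with the animal block, which ends the call). For Zbtb16 brain minus liver was -2.60 ± 0.52 and for Fkbp5 it was -0.81 ± 0.29, neither passing adjustment (edgeR adjusted p = 0.0699 and 0.296). Hspa1b had 1.47 in brain, 0.78 in liver and 0.52 in testis, and neither difference passed (edgeR adjusted p = 0.895 against liver and 0.512 against testis). Rpl38 had 0.69 in brain, -0.09 in liver and 0.99 in testis (edgeR adjusted p of the differences = 0.205 and 0.824).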

How the data were processed

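Total RNA was sequenced from brain, liver and testis of stressed and control mice. Libraries were made with the TruSeq Stranded Total RNA kit, per the labels' protocols. Reads were placed on genome build mm39, per the submitters' processing notes. The aligner, the counting program, its strand setting and the annotation are not stated in the sources used here, so reads of near-identical copies and of antisense partners may be shared between genes. The counts were deposited by the authors as whole numbers without normalization, and TPM values, which correct for gene length and sum to a fixed total, were deposited beside them. Depth was 32.08 to 36.5 megacounts in the brain libraries, and replicates of 1 group differed by more than counting error (chi-square over its degrees of freedom 9.95 to 52.39). Symbols came from GENCODE M21 by gene identifier and named 34362 of 34932 genes, with 570 left without a symbol.

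Brain counts were tested with edgeR 4.0.16 in R 4.3.3 (filterByExpr with a minimum count of 10, TMM factors, quasi-likelihood test, Benjamini-Hochberg adjustment over 17668 genes, threshold 0.05), which was tested on simulated data. Differences between tissues used the same test as an interaction. Alternatives were DESeq2 1.42.0, limma 3.58.1 (voom, and log2(TPM + 0.5)), other scalings and filters, each library left out, and the replicate number as a block. Correlations across genes of deviations from the group mean were 0.348, 0.248 and 0.540 for stress and control libraries of the same number. For the rest they were -0.392 to 0.141. On these correlations alone the numbers were used as a block, since titles and sample codes state no pairing. Transcripts were aligned with Biopython.

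Genes named were Fkbp5, Tsc22d3, Zbtb16, Per1, Sgk1, Nr3c1, Nr3c2 and Crh, every called gene, the 8 protein-coding genes of smallest p in each direction with a mean of 1 CPM or more in a group, such genes called with the block, and up to 5 members of smallest p of each list. Members and lists were chosen with earlier results of these data known. Hspa1a, Hspa8, Hsp90aa1, Hsf1, Hsph1, Hspe1, Hspd1, Hspa5, Atf4, Ddit3, Mt1, Mt2, Gfap, Six6 and Epb42 were, like those marked in the text, chosen after their values were seen.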

Additional observations from a re-analysis of the deposited data

Results flagged for a closer look

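The stress effect on Tsc22d3, a glucocorticoid-induced leucine zipper gene, was flagged because it differed between brain and liver in the test of the difference itself: brain minus liver was -1.513 on the log2 scale (edgeR adjusted p = 0.03943). With the animal as a block the call was lost (edgeR adjusted p = 0.106). The log2 fold change was 0.24 in brain and 1.75 in liver, and all 3 stress libraries lay above all 3 control libraries in brain.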

How the results depend on the processing

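Genes higher in stress brain numbered 1, against 83 with DESeq2, 0 with limma-voom (1340 genes in either direction at an unadjusted p under 0.05), 2 with no filter on low counts, 2 with all 18 libraries in the fit, 17 with the replicate block and 0 to 1 with 1 library left out. Genes lower numbered 0, against 35 with DESeq2, 1 with all 18 libraries, 5 with the replicate block and 1 with replicate 3 of both groups left out, an alternative added after seeing the data. Of the 118 DESeq2 calls, 16 were also called with the block. The brain minus liver difference was called for 37 genes, for 2 with the animal as replicate block, and for 5 to 35 with 1 library left out. The brain minus testis difference was called for 0 genes, and for 0 to 3 with 1 library left out. The block changed no other call than those given in the text.

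Small fold changes changed sign: Per1 was 0.001 with TPM and limma, -0.23 to 0.161 with 1 library left out and 0.239 with replicate 3 of both groups left out; Sgk1 was -0.201 to 0.085 with 1 library left out and 0.063 with replicate 3 of both left out. With 1 library left out Nr3c2 was -0.096 to 0.177, Crh -0.195 to 0.097, Fa2h -0.44 to 0.007 and Hba-a2 -0.508 to 0.305. Striatum markers had a median of -0.50, and of 0.45 with replicate 3 of both groups left out. The cause of these changes was not tested. No setting moved the median of all genes by more than 0.0216 on the log2 scale. Depth limits genes of few reads, such as Otx2 and Trh, and read placement limits copies such as Gm6969.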
